A study of Mus musculus with 15 samples.

Results

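The genes studied here encode 4 bone morphogenetic proteins (Bmp2, Bmp4, Bmp6, Bmp7), the 3 transforming growth factors beta (Tgfb1, Tgfb2, Tgfb3) and 3 of their receptors (Tgfbr1, Tgfbr2, Bmpr1a). They were chosen as a family, and a probe was taken as a member if its accession on the array matched one of these 10 mouse symbols. These are 10 of the 21154 genes that a probe named, with 14 of the 55681 probes, 2 each for Bmp4, Tgfb2, Tgfbr1 and Tgfbr2 and 1 for each of the others. RNA came from the femoral diaphysis of male C57BL/6J mice, labelled as 9 weeks old, and each mouse gave 1 array. The groups were 4 unoperated mice on the ground (G-Sham), 4 unoperated mice in spaceflight (FLT-Sham), 4 ground mice with surgery (G-Surgery) and 3 spaceflight mice with surgery (FLT-Surgery). Spaceflight lasted about a month on the International Space Station, and ground mice were kept in the same hardware some days apart. Surgery was a segmental bone defect (SBD), in which a piece of the femoral shaft was replaced by a polymer and calcium phosphate graft on a pin, with a collagen sponge soaked in saline and no added growth factor. The tissue of every sample is labelled callus, also in the unoperated mice, where the same piece of shaft was taken. All carcasses were frozen and then partly thawed for dissection. The paper calls the quality of the bone RNA sub-optimal, and comparable between spaceflight and ground. The part of RNA quality in the dim probes below was not tested. Each mouse is taken as 1 replicate.

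Members of this family are secreted ligands that bring a type II and a type I receptor together on the cell surface. BMP receptors then activate Smad1, Smad5 and Smad9, and the TGF-beta receptors activate Smad2 and Smad3, which act on transcription with Smad4. In fracture repair BMPs are known for driving mesenchymal cells to cartilage and bone, while TGF-beta is stored in latent form in bone matrix and released when the matrix is resorbed.

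Femoral RNA was labelled with Cy5 and hybridised together with a Cy3-labelled commercial reference, which pools the RNA of mouse cell lines. A value below is the log2 ratio of Cy5 to Cy3, so that 0 is the level in the reference and 1 is a doubling. A probe is called above background on an array if the scanner software flagged the Cy5 signal as well above background for a share of at least 0.5 of its usable spots. Since a ratio depends on the reference, ratios of different probes are not set against each other. Each difference was tested with limma, and passes the cut-off where the fold change is 2 or more and the p-value, before adjustment, 0.01 or less. The adjusted p is the Benjamini-Hochberg value over all probes tested. A p-value measures the spread between these mice. In tissue RNA, fewer cells of a type and less RNA per cell cannot be told apart.

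Over all probes, 22.4% to 38.5% were above background per array, with FLT-Surgery lowest at 22.4% to 25.6%. FLT-Sham replicate 8 stood apart from the rest of its group, with 26.6% against 34.9% to 38.5%, and results that rest on it are given with and without it. The factor by which the dye normalization multiplied Cy5 ran from 19.8 to 59.5. The arrays lay on 3 slides, which held over 1 group each except for the slide of G-Sham replicate 4. With a further loess normalization, the median log2 difference over all probes tested moved from 0.24 to -0.13 in the Sham comparison and from -0.20 to 0.30 in the Surgery comparison. The probes past the cut-off that were higher in spaceflight then numbered 159 of 245 in place of 353 of 394 (Sham), and 1163 of 1223 in place of 173 of 519 (Surgery). Of 10 genes known for osteoblasts and osteocytes, 7 were above background on at least 3 arrays, while the osteocyte genes Dmp1, Phex and Sost were above background on 0 arrays and Mepe, another osteocyte gene, on 11.

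Promoter sequence is shown for Tgfb2, Tgfbr1 and Bmp4, since the comparisons below turn on them. The RefSeq table used (mouse build GRCm38.p6) holds 8 windows for 7 of the 10 genes, each of 300 bases with 250 before the start of transcription and 50 after it. Bmp2, Bmp7 and Tgfb3 have no entry in it. Capitals mark matches to 5 motifs, searched on both strands. The first was the TATA box, spelled TATAAA. For Sp1 the GC box was taken as GGGCGG. An E-box was counted where the window held CACGTG. The element bound by AP-1 was searched as TGANTCA. Smad proteins bind a short element that was searched as CAGACA. No matches of different motifs overlapped in the windows shown.
Tgfb2, chr1:186705940-186706239, minus strand: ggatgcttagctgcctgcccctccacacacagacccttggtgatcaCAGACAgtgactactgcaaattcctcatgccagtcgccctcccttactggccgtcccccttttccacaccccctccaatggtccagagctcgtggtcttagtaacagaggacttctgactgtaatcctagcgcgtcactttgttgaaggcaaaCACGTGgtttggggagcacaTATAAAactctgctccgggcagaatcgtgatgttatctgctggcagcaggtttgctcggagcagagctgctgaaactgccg
Tgfbr1, chr4:47352972-47353271, plus strand: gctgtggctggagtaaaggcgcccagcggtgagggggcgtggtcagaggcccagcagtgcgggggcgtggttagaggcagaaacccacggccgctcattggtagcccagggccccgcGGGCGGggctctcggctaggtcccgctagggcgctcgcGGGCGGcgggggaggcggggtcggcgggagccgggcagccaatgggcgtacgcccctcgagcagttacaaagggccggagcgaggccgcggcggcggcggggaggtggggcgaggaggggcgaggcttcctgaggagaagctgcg
Bmp4, chr14:46390620-46390919, minus strand: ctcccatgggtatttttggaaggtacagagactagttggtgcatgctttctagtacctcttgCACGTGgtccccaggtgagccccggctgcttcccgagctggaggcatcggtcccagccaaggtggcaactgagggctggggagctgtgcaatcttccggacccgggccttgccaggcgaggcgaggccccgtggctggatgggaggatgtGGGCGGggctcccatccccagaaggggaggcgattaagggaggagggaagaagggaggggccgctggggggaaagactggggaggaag
The Tgfb2 window held a TATA box that begins at -31 from the start of transcription, an E-box at -51 and a Smad element at -204, and its GC content was 54.3%. Both matches in the Tgfbr1 window shown were GC boxes, at -133 and -95, in sequence with 74.7% GC. A second Tgfbr1 window of the table, at chr4:47385966-47386265 on the plus strand, had 52.0% GC, no GC box and a Smad element at -203. Bmp4 had a GC box at -38 and an E-box at -188, with 64.0% GC. Over all 32851 promoters of the table, the TATA box letters were found in 13.6%, those of the GC box in 35.7%, of the E-box in 7.15%, of the AP-1 element in 7.81% and of the Smad element in 21.0%.

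Only the ligands Bmp4, Tgfb1 and Tgfb3 were above background in every group on most arrays. The brightest probe of Bmp4 was above background on 15 arrays, and Tgfb1 and Tgfb3 on 14 each. Tgfbr2 reached 11 arrays with each of its probes, and Tgfb2 reached 6 with its brightest probe and 11 with the other. Bmpr1a and Tgfbr1 (brightest probe) were above background on 5 arrays, Bmp2 on 4, Bmp7 on 3 and Bmp6 on 1. The other probes of Bmp4 and Tgfbr1 were above background on 0 arrays, with a ratio of exactly 0 on 14 and 9 arrays. Of the 14 member probes, 11, 12 and 11 were above background in FLT-Sham replicates 4, 6 and 9 and 3 in replicate 8. In the other groups the number was 3 to 7 in G-Sham, 6 to 9 in G-Surgery and 3 to 6 in FLT-Surgery. It rose with the number of all other probes above background over the 15 arrays (Pearson's r = 0.822, permutation test p = 0.00022, adjusted 0.00048 over 4 relations; Spearman's rho = 0.851, permutation test p = 0.00013, adjusted 0.00052). Without the 2 arrays farthest from the median r was 0.699, and within each of the 2 slides with 7 arrays it was 0.841 and 0.889. The part of this general detection in the differences below was not tested.

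**Figure D1:**
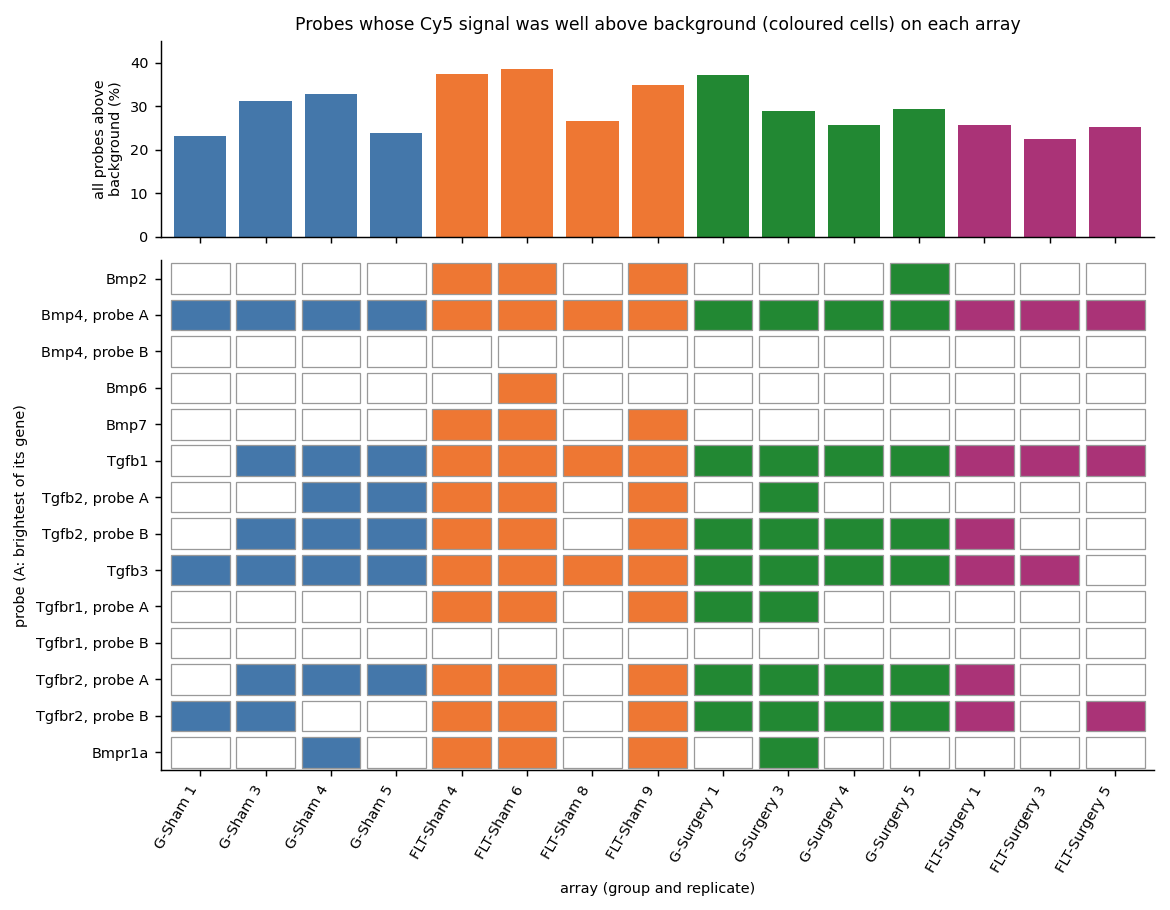
Upper panel: share of all probes above background in Cy5 (%) on each of the 15 arrays. Lower panel: each row is a member probe, and a coloured cell marks an array where it was above background. FLT-Sham replicates 4, 6 and 9 have 11 or 12 coloured cells and FLT-Sham replicate 8 has 3.

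Among the BMP ligands, Bmp2, which is needed to start fracture repair in mice, was above background in FLT-Sham replicates 4, 6 and 9 and in G-Surgery replicate 5. Its log2 ratios were 3.04, 3.29, -0.18 and 3.35 in FLT-Sham replicates 4, 6, 8 and 9. In G-Sham replicates 1, 3, 4 and 5 they were -0.57, 0.43, 0.88 and 1.99. G-Surgery replicates 1, 3, 4 and 5 gave 1.97, 2.19, 1.43 and 3.80. In FLT-Surgery replicates 1, 3 and 5 the ratios were -0.16, 0.00 and -0.22, below every G-Surgery array. The Surgery groups did not overlap for 13.5% of the probes tested between them, and this probe was too dim for that test. The reference signal of this probe was not above background on any array, so that its ratios rest on dim signals in both channels.

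Bmp4, a ligand of mesenchymal cells and endothelium, was the most steadily detected member. Its ratios were 2.37, 2.16, 1.90 and 1.98 in G-Sham replicates 1, 3, 4 and 5 and 1.92, 1.86, 1.93 and 2.04 in G-Surgery replicates 1, 3, 4 and 5. In FLT-Sham replicates 4, 6, 8 and 9 they were 0.78, 0.79, 2.52 and 1.75, and in FLT-Surgery replicates 1, 3 and 5 they were 2.33, 2.70 and 2.66. The FLT-Surgery arrays lay above all G-Surgery arrays, and the FLT-Sham arrays spread from below to above all G-Sham arrays. Over the 15 arrays the ratio of Bmp4 rose with the Cy5 dye factor (Pearson's r = 0.643, permutation test p = 0.01, adjusted 0.013; Spearman's rho = 0.639, permutation test p = 0.012, adjusted 0.016). Without the 2 arrays farthest from the median r was 0.475, and within the slides it was 0.690 and 0.661. Of 4483 other genes above background on all 15 arrays, those whose ratios were most like it were Epas1 (r = 0.992), Arl4c (r = 0.985) and Rdh12 (r = 0.984), all over the same arrays and hence the same dye factors.

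Bmp6 and Bmp7, ligands of the same subfamily, were dim. Bmp6 lay between -2.06 and 1.51 and was above background in FLT-Sham replicate 6 alone. For Bmp7, the ratios in FLT-Sham replicates 4, 6, 8 and 9 were -1.27, -1.37, -2.10 and -1.81, the first, second and last of them above background. In G-Sham replicates 1, 3, 4 and 5 they were -2.94, -2.88, -3.08 and -3.68, all lower than in FLT-Sham and none above background. G-Surgery gave -3.56, -4.17, -4.36 and -3.14, and FLT-Surgery gave -4.19, -2.16 and -2.11, again with no array above background.

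Tgfb1, the main TGF-beta of bone matrix, differed little between arrays, with ratios from -1.47 to -0.02 and a mean between -0.79 and -0.46 in each group. This probe and that of Tgfb3 were printed as 10 spots per array. The SD between the spots of one array was 0.34 for Tgfb1 at the median array and 1.34 at the highest, beside 0.50 between arrays of a group. All usable spots of Tgfb1 were above background on 7 arrays and some of them on the other 8. For Tgfb3 the SD between spots was 0.17 at the median array and 1.19 at the highest, against 1.08 between arrays of a group.

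**Figure D2:**
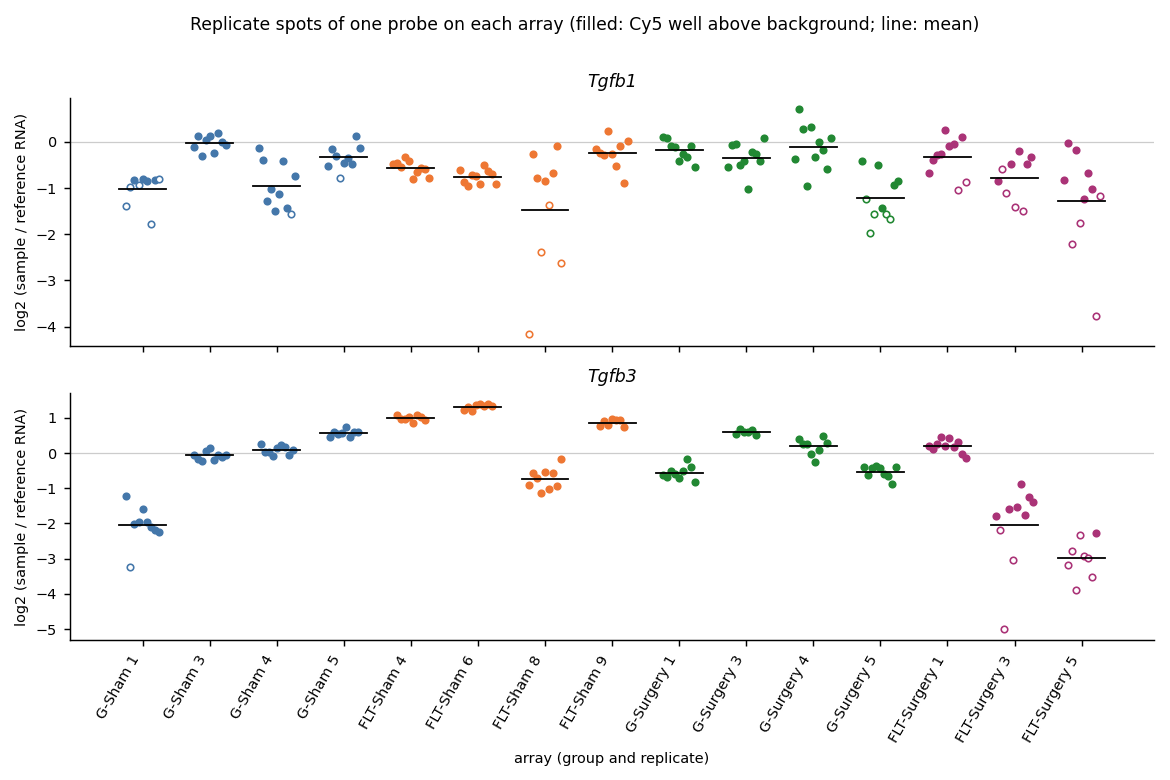
Log2 ratio of sample to reference for each usable spot of the Tgfb1 probe (upper panel) and the Tgfb3 probe (lower panel) on the 15 arrays, filled where Cy5 was well above background, with a line at the mean of an array. The SD between the spots of an array had a median of 0.34 for Tgfb1 and 0.17 for Tgfb3.

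Tgfb3, the third isoform, had ratios of -2.05, -0.07, 0.09 and 0.57 in G-Sham replicates 1, 3, 4 and 5 and of 0.99, 1.32, -0.73 and 0.86 in FLT-Sham replicates 4, 6, 8 and 9. With surgery they were -0.55, 0.60, 0.19 and -0.53 on the ground (replicates 1, 3, 4 and 5) and 0.20, -2.04 and -2.98 in spaceflight (replicates 1, 3 and 5). The lowest value is the one array where this probe was not above background.

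Tgfb2, an isoform of embryonic skeleton and cartilage, was highest in FLT-Sham. At its brightest probe the ratios were -0.36, 0.17, -2.42 and -1.21 in FLT-Sham replicates 4, 6, 8 and 9 and -4.07, -3.41, -1.92 and -1.05 in G-Sham replicates 1, 3, 4 and 5. G-Surgery replicates 1, 3, 4 and 5 gave -3.06, -1.75, -2.36 and -3.06, and FLT-Surgery replicates 1, 3 and 5 gave -2.92, -4.42 and -5.30. The FLT-Surgery arrays lay below all FLT-Sham arrays, while every other pair of groups overlapped. The other Tgfb2 probe moved with it over the 15 arrays (Pearson's r = 0.794, permutation test p = 0.00024, adjusted 0.00048; Spearman's rho = 0.704, permutation test p = 0.0043, adjusted 0.0087). Without the 2 arrays farthest from the median r was 0.629, and within the slides it was 0.789 and 0.926.

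Tgfbr2, the type II receptor that binds TGF-beta first, was not measured alike by its probes. The brightest lay between -3.98 and -1.37 and the other between -1.24 and 2.81, and they did not move together (Pearson's r = 0.112, permutation test p = 0.69; Spearman's rho = 0.0857, permutation test p = 0.76; r = 0.293 without the 2 arrays farthest from the median and 0.0202 and 0.102 within the slides). The second probe gave 2.81, 2.62, 2.23 and -0.11 in G-Surgery replicates 1, 3, 4 and 5 and at most 1.65 on any other array.

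**Figure D3:**
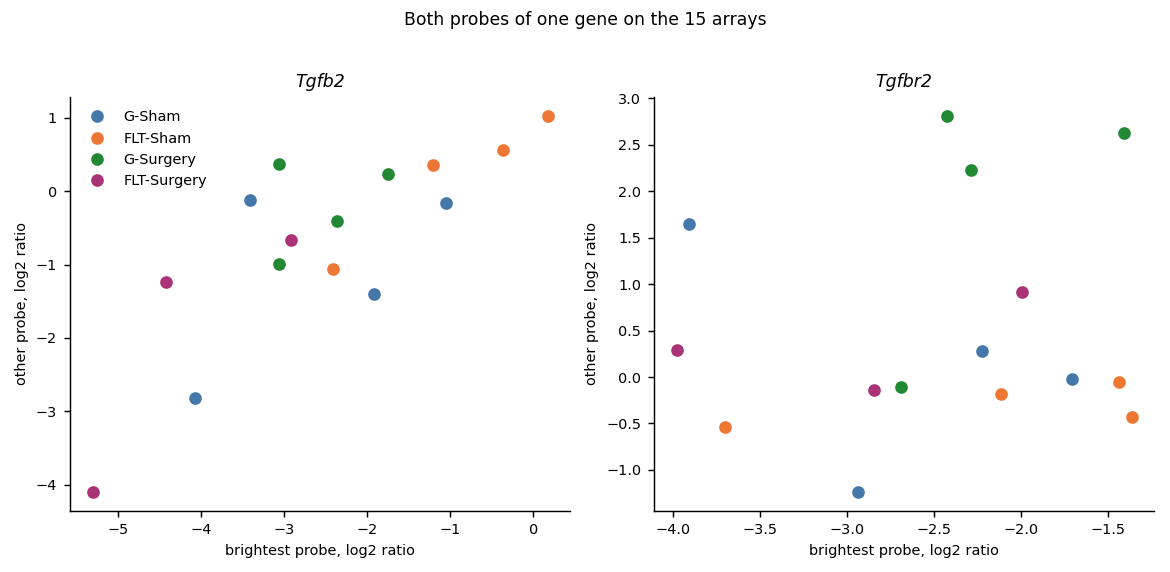
Log2 ratio at the brightest probe (horizontal axis) against the other probe (vertical axis) of Tgfb2 (left) and Tgfbr2 (right), with 1 point per array coloured by group. The Tgfb2 points rise together (r = 0.794) and the Tgfbr2 points do not (r = 0.112).

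Tgfbr1, the type I receptor that carries the TGF-beta signal into the cell, had ratios of 0.27, 0.53, -2.95 and -1.12 in FLT-Sham replicates 4, 6, 8 and 9 and of -1.15, -0.25, -1.46 and -1.76 in G-Surgery replicates 1, 3, 4 and 5. They were -3.90, -1.45, -2.05 and -2.07 in G-Sham replicates 1, 3, 4 and 5 and -3.32, -3.48 and -3.61 in FLT-Surgery. All 3 FLT-Surgery arrays lay below all G-Surgery and all FLT-Sham arrays, and none of the 3 was above background. The groups did not overlap for 13.5% of probes tested against G-Surgery, where Tgfbr1 was too dim to be tested. Against FLT-Sham they did not overlap for 14.7% of probes tested. Bmpr1a, a type I receptor for BMPs, ranged from -5.05 to 0.17 and was above background in FLT-Sham replicates 4, 6 and 9, G-Sham replicate 4 and G-Surgery replicate 3.

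**Figure D4:**
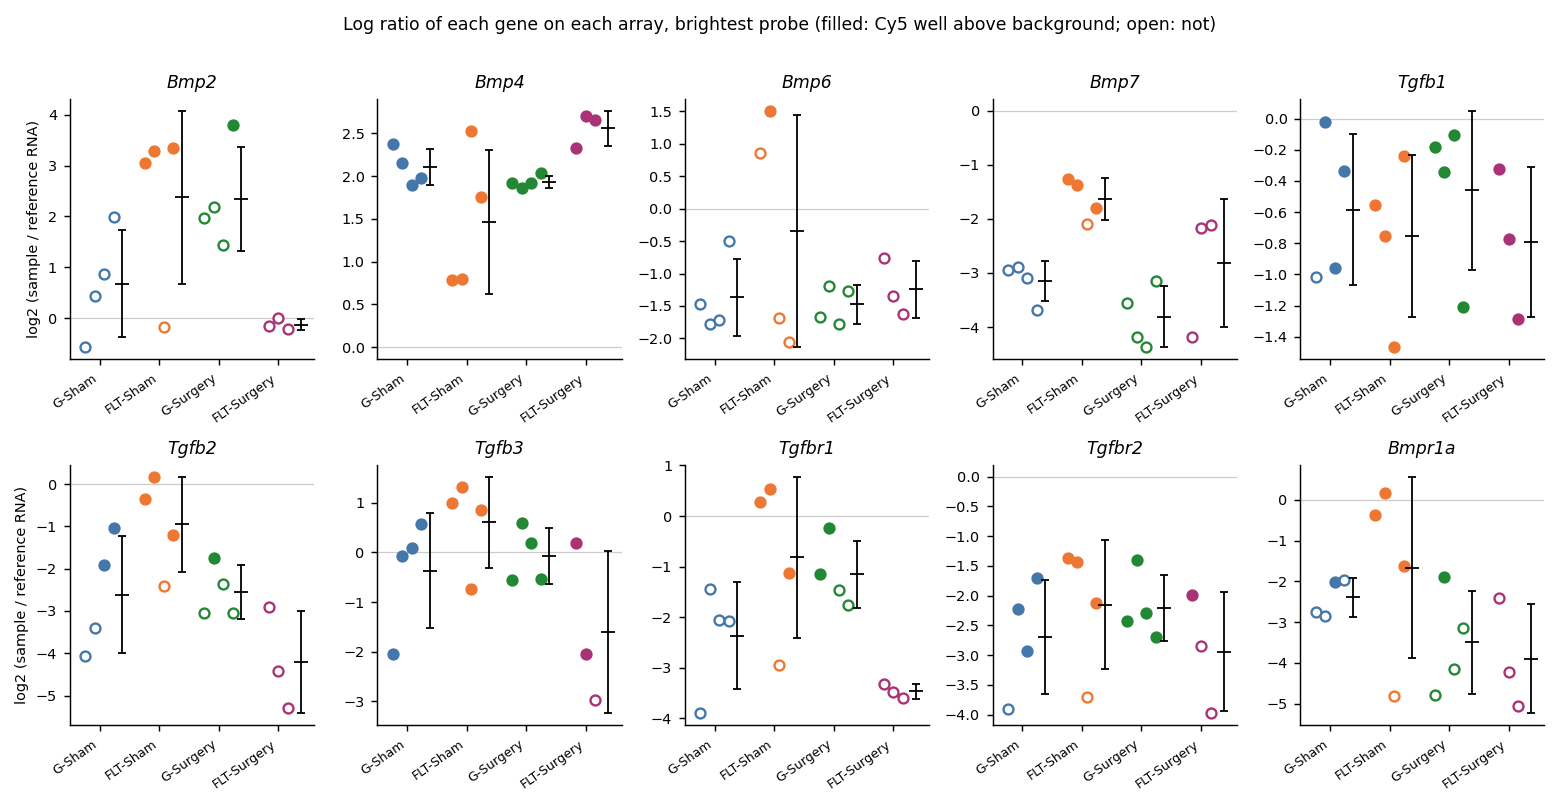
Log2 ratio of sample to reference RNA at the brightest probe of each gene, with 1 point per array, filled where Cy5 was above background and open where it was not, and the mean with the SD beside each group (n = 4, and 3 for FLT-Surgery). FLT-Sham replicate 8 is the open orange point apart from the others for Bmp2, Tgfbr1 and Bmpr1a, and the FLT-Surgery points are all open for Bmp2, Bmp6, Bmp7, Tgfb2, Tgfbr1 and Bmpr1a.

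The Sham comparison asks what spaceflight did to the unoperated femur. Of the 9 members that could be tested, Bmp7 passed the cut-off, as did 1.79% of all probes tested in the direction of higher in spaceflight. Bmp7, Bmp2 and Tgfbr1 exceeded background on 3 arrays of FLT-Sham but on 0 of G-Sham and so were tested only through the group where they are bright, which favours this direction. Bmp7 was higher in FLT-Sham by 1.51 on the log2 scale (SE 0.34, 95% CI 0.74 to 2.28, adjusted p = 0.40), and by 1.45 with centring on the array median, but it missed the cut-off with further loess (0.73, adjusted p = 0.56) and with Cy5 alone (1.02) and was at -0.047 with normexp background correction. Its groups did not overlap, which held for 4.60% of probes. Since no G-Sham array was above background, the mean Cy5 signal of Bmp7 was at least 1.90-fold lower there (1.48-fold after further loess). Such a bound describes the mean signal of these arrays. It carries no sampling error, so that it does not bound the difference between groups of mice. The log2 difference of Bmp7 was 1.61 and 1.55 within the slides that held both groups, and 1.57 with slide as a block (adjusted p = 0.64). Tgfb2 was at 1.66 (SE 0.78, adjusted p = 0.52). Bmp2 was at 1.70 (SE 0.87, 95% CI -0.29 to 3.69, adjusted p = 0.52), with a signal bound of at least 1.12-fold. Tgfbr1 was at 1.55 (SE 0.84, 95% CI -0.35 to 3.45, adjusted p = 0.52), with a signal bound of at least 1.90-fold. Bmp4 and Tgfb1 were at -0.64 (SE 0.44) and -0.17 (SE 0.39). Without FLT-Sham replicate 8 the share of all probes past the cut-off was 10.65%, with 580 probes at an adjusted p of 0.05 or less, and 4 members passed, namely Bmp2 (2.55, adjusted p = 0.057), Bmp7 (1.66, adjusted p = 0.044), Tgfbr1 (2.26, adjusted p = 0.092) and Bmpr1a (1.78, adjusted p = 0.086). Without FLT-Sham replicate 4, 6 or 9 there were 0, because Bmp7 was then above background on too few arrays to be tested.

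The Surgery comparison asks what spaceflight did to the femur under repair, and 5 members had a probe bright enough for it. Of these 0 passed the cut-off in limma, beside 3.14% of all probes tested, and 1 had a p of 0.05 or less before adjustment, beside 16.4% of all probes. That was Bmp4, higher in FLT-Surgery by 0.63 (SE 0.24, 95% CI 0.07 to 1.18, adjusted p = 0.29) and by 0.85 with further loess, with groups that did not overlap (13.5% of probes). Tgfb3 was at -1.53 (SE 0.73, adjusted p = 0.33). It passed the cut-off with slide as a block (-1.68, adjusted p = 0.12), as did 7.80% of all probes. It also passed without FLT-Surgery replicate 1 (-2.44, adjusted p = 0.028), where 12.75% of all probes passed. Its difference was -2.21 and -0.40 within the slides. Tgfb2 was tested at its other probe alone and was at -1.80 (SE 0.81, adjusted p = 0.31). Tgfb1 was at -0.33 (SE 0.38), turning to 0.50 with further loess, and Tgfbr2 at -0.74 (SE 0.52). The other Tgfbr2 probe, at -1.53 (SE 0.72, adjusted p = 0.32), passed without G-Surgery replicate 5 (-2.20, adjusted p = 0.21), as did 4.63% of all probes. At the brightest probes 3 of 4 members were lower, and 2 of 4 with further loess.

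The remaining members were too dim for this test, so that the size of their differences is uncertain. With no filter on dim probes, where 1.28% of probes passed, Bmp2 was at -2.47 (SE 0.57, adjusted p = 0.40) and Tgfbr1 at -2.31 (SE 0.37, adjusted p = 0.29). No FLT-Surgery array was above background for either gene. The mean Cy5 signal of Tgfbr1, above background in 2 G-Surgery arrays, was at least 2.58-fold brighter in G-Surgery (2.80-fold after further loess). This bound is for the Cy5 signal and not for the ratio to the reference. After further loess the log2 ratios of Tgfbr1 were -0.60, 0.71, -0.06 and -0.42 in G-Surgery and -1.32, -1.20 and -1.48 in FLT-Surgery. The brightest Tgfb2 probe, above background in 1 G-Surgery and 0 FLT-Surgery arrays, was at -1.66 (SE 0.65, adjusted p = 0.57) and did not pass. For Bmp2 the signal of G-Surgery stayed under the lowest signal that counted as above background in FLT-Surgery, so that no fold is given and no difference can be read from its ratio.

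Surgery on the ground was compared with G-Sham. Of 5 members tested 0 passed the cut-off in limma, beside 2.59% of all probes, and 0 had a p of 0.05 or less before adjustment, beside 10.9% of all probes. The differences at the brightest probes ran from -0.17 (Bmp4, SE 0.22) to 0.49 (Tgfbr2, SE 0.50), with 4 of 5 higher, and 2 of 5 with further loess. The other Tgfbr2 probe was at 1.72 (SE 0.78, adjusted p = 0.47), and passed the cut-off at 2.39 (adjusted p = 0.21; 3.92% of all probes) without G-Surgery replicate 5, the one low array of its group.

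Surgery in spaceflight, against FLT-Sham, gave larger differences. This comparison shares its arrays with the ones before. Of the 9 members tested Tgfb2 passed the cut-off, beside 6.65% of all probes, or 6.23% counting the lower ones alone. The brightest probe of Tgfb2, and those of Bmp2, Bmp7, Bmpr1a and Tgfbr1, were above background on 3 FLT-Sham and 0 FLT-Surgery arrays and so were tested only through the group where they are bright. Tgfb2 fell by 3.26 in FLT-Surgery (SE 0.77, 95% CI -5.05 to -1.46, adjusted p = 0.14) and by 2.08 with further loess (adjusted p = 0.16), and lay at -0.10 with normexp. With no FLT-Surgery array above background, its mean Cy5 signal was at least 5.62-fold lower (4.17-fold after further loess). With slide as a block the difference of -3.05 (adjusted p = 0.33) missed the cut-off, and within the slides it was -4.50 and -1.76. The other Tgfb2 probe was at -2.22 (SE 0.89, adjusted p = 0.19).

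With Tgfb2, 4 members had a p of 0.05 or less before adjustment, beside 24.3% of all probes. The others were Tgfbr1 at -2.65 (SE 0.82, adjusted p = 0.15), Bmp2 at -2.50 (SE 0.87, adjusted p = 0.16) and Tgfb3 at -2.22 (SE 0.83, adjusted p = 0.18). The mean Cy5 signal was at least 2.72-fold lower for Tgfbr1 and at least 1.09-fold lower for Bmp2. The groups did not overlap for Tgfb2, Tgfbr1 and Bmp7, as for 14.7% of all probes. Bmp4 was at 1.10 (SE 0.51, adjusted p = 0.23), and above 0 with further loess too. Without FLT-Sham replicate 8 the share of all probes past the cut-off was 26.2%, and 6142 of 18725 probes had an adjusted p of 0.05 or less. In that fit 5 members passed, also with an adjusted p of 0.05 or less: Bmp2 (-3.35), Tgfbr1 (-3.36), Tgfb2 (-3.75), Bmpr1a (-3.28) and, as higher, Bmp4 (1.45). Without FLT-Sham replicate 4, 6 or 9, or FLT-Surgery replicate 3 or 5, 0 passed, and without FLT-Surgery replicate 1 Tgfb2 (-3.91) and Tgfb3 (-3.12) did, with 13.0% of all probes.

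**Figure D5:**
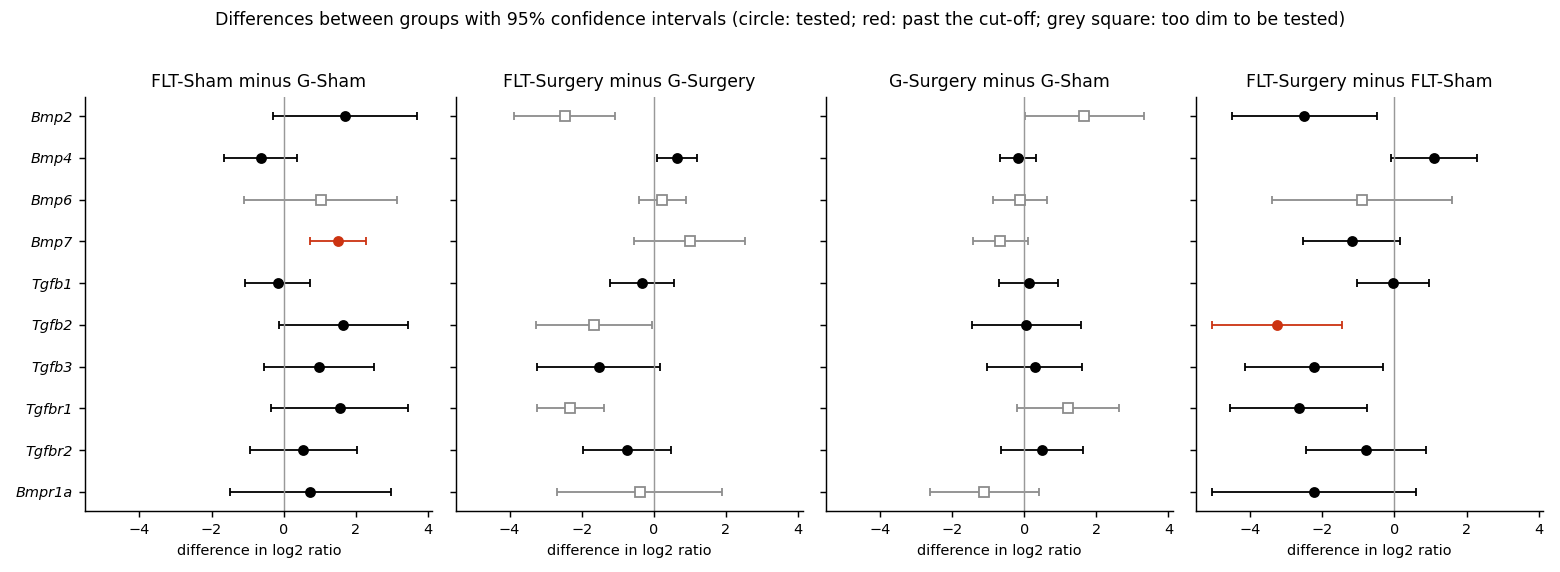
Difference in log2 ratio between groups at the brightest probe of each gene, with the 95% confidence interval from limma, in the 4 comparisons. Red marks a difference past the cut-off (Bmp7 in the Sham comparison, Tgfb2 between FLT-Surgery and FLT-Sham), and a grey open square marks a gene above background on too few arrays to be tested.

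Whether the effect of spaceflight differed between operated and unoperated mice was tested as an interaction over all 15 arrays. Of the 9 members tested 3 passed the cut-off, beside 5.33% of all probes tested, or 4.97% counting those below 0. In limma 0 probes had an adjusted p of 0.05 or less, while 4245 probes (19.5%), with 5 members among them, were at 0.05 or less before adjustment. Bmp2 was at -4.17 (SE 1.14, adjusted p = 0.17) and Tgfbr1 at -3.86 (SE 1.03, adjusted p = 0.17). For either gene, no array of G-Sham or FLT-Surgery was above background. They were tested only through FLT-Sham (3 arrays each) and G-Surgery (1 array for Bmp2, 2 for Tgfbr1), which favours a term below 0. The size of both terms is uncertain, and other settings or refits of the same dim values do not settle it. Bmp2 and Tgfbr1 kept their side of the cut-off with further loess (-4.40 and -2.12) and slide as a block (-4.24 and -3.97). They also kept it in each of the 15 refits with an array left out. With normexp both missed it (-0.30 and -0.22), and Bmp2 also missed it with Cy5 alone (-2.07). Tgfb2, at -3.32 (SE 1.08, adjusted p = 0.18), passed in 6 of these 15 refits, missed the cut-off at -1.79 (adjusted p = 0.23) after further loess and turned to 0.051 with normexp. Without FLT-Sham replicate 8, 17.45% of all probes passed and 3061 had an adjusted p of 0.05 or less, and 4 members passed: Bmp2 (-5.02, adjusted p = 0.020), Tgfbr1 (-4.57, adjusted p = 0.021), Tgfb2 (-3.80, adjusted p = 0.039) and Bmp4 (1.62, adjusted p = 0.036). For Tgfbr1 and Tgfb2 the ratio was higher in FLT-Sham than in G-Sham and lower in FLT-Surgery than in G-Surgery. These are ratios of dim probes and not calls of their own. The ratio of Bmp2 was higher in FLT-Sham than in G-Sham too, but between the Surgery groups no difference can be read from it. Tgfb3 was at -2.51 (SE 1.05, adjusted p = 0.22) and Bmp4, of opposite sign, at 1.27 (SE 0.53, adjusted p = 0.22).

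The rest of the pathway was followed with 65 genes in 6 lists, all with a probe. In the Sham comparison 41 were measured, of which 1 rose and 0 fell past the cut-off, beside 1.79% of all probes as higher. This was Smad6, an inhibitory Smad that BMP signalling induces, at 2.68 (SE 0.42, adjusted p = 0.24; 1.86 with further loess). Its Cy5 signal exceeded background in 3 mice of FLT-Sham but in 0 of G-Sham, and it was at least 2.67-fold higher. The median over all lists was 0.43, beside 0.24 over all probes. The other measured receptors were all 6 higher, without a call (median 0.79), while of the 10 inhibitors 4 were higher and 6 lower. With further loess 1 of these receptors was lower and their median was 0.25, beside -0.13 over all probes. Of the 10 target genes 5 were higher and 5 lower, among them Id1 at 0.79 (SE 0.46) and Id3 at -0.03 (SE 0.43), early targets of BMP signalling.

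Between FLT-Surgery and G-Surgery 29 were measured and 1 fell past the cut-off, beside 3.14% of all probes in either direction. This was Ltbp1, which binds latent TGF-beta to the matrix, at -2.15 (SE 0.56, adjusted p = 0.28; -1.34 with further loess). Of the 8 genes for the latent complex and its activation 7 were lower, among them Ltbp4 at -0.0097, with a median of -1.46 beside -0.20 over all probes. With further loess 6 were lower and the median was -0.71, beside 0.30 over all probes. All 35 genes measured between G-Surgery and G-Sham missed the cut-off in limma. Between FLT-Surgery and FLT-Sham 39 were measured and 1 fell, beside 6.23% of all probes as lower. This was Tgfbr3, a co-receptor of the TGF-beta family, at -2.91 (SE 0.78, adjusted p = 0.14). Its mean Cy5 signal was at least 5.04-fold lower (3.51-fold after further loess). Like Smad6 in the Sham comparison, it was tested only through FLT-Sham, with 3 arrays above background against 0. In the interaction 42 were measured and 2 were lower past the cut-off, beside 4.97% of all probes. They were Fst (follistatin, which binds activins and BMPs) at -4.13 (SE 1.08, adjusted p = 0.17) and Furin (a protease that cuts the precursors of these ligands) at -4.37 (SE 1.37, adjusted p = 0.18), or -2.54 and -2.77 with further loess.

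Markers of other cells moved between the groups. The mean ratio of the 3 cartilage genes above background on at least 3 arrays (of 6, with Col10a1, Sox9 and Matn1 above background on 0) was 2.43 to 5.47 in G-Surgery and at most 1.76 in the other groups. All 7 muscle genes were measured, and their mean ratio was 5.95 to 8.54 in FLT-Sham, 5.86 to 8.21 in G-Sham, 5.51 to 7.23 in G-Surgery and 4.17 to 7.10 in FLT-Surgery. Their summed share of the Cy5 signal was 0.235% to 1.71% in FLT-Sham, 0.223% to 1.36% in G-Sham, 0.158% to 0.717% in G-Surgery and 0.0332% to 0.473% in FLT-Surgery. For adipocytes 4 of 5 genes were measured (Lep on 0 arrays), and the mean ratio was 4.58 to 6.95 in FLT-Sham against -0.39 to 5.05 in G-Sham, 0.80 to 2.01 in G-Surgery and -1.02 to 2.84 in FLT-Surgery. Of the lists not yet named, neutrophil, erythroid, osteoblast and osteocyte, megakaryocyte, endothelial and osteoclast genes also had their highest array in FLT-Sham. It was at 3.22 for osteoclasts and 3.99 for endothelium, beside 3.21 and 3.78 at the highest G-Surgery array. The mean ratio of the neutrophil genes (6 of 6 measured) was 6.46 to 7.81 in FLT-Sham, 4.67 to 7.25 in G-Sham, 5.21 to 6.66 in G-Surgery and 3.39 to 6.17 in FLT-Surgery. For erythroid genes (3 of 6) it was 7.05 to 8.40, 5.46 to 7.71, 2.87 to 6.62 and 2.49 to 6.32 in the same order of groups. The osteoblast and osteocyte genes (7 of 10) gave 2.29 to 3.58, -0.04 to 2.84, 1.55 to 2.18 and 0.42 to 2.04. Megakaryocyte genes (6 of 6) gave -0.21 to 1.37, -0.47 to 0.73, -1.10 to 0.06 and -0.66 to -0.52. Spp1, Col1a1, S100a9, Elane and Hbb-bt had a lower mean ratio in FLT-Sham than in G-Sham. The other measured genes of the neutrophil, erythroid and osteoblast lists were higher there. The mean ratios of FLT-Sham and FLT-Surgery did not overlap for the neutrophil, erythroid, osteoblast, megakaryocyte and adipocyte lists. The summed Cy5 share did not overlap for neutrophil, erythroid and adipocyte genes, but overlapped for megakaryocyte and osteoblast genes. For osteoblast genes it was 0.0358% to 0.0777% in FLT-Sham and 0.0384% to 0.0595% in FLT-Surgery, with the highest array in G-Surgery (0.134%). The part of these cells in the differences of Bmp2, Bmp7, Tgfb2 and Tgfbr1 was not tested.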

How the data were processed

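Femoral RNA of 15 mice was hybridised to 2-colour Agilent mouse arrays of 62976 spots, with the sample in Cy5 and a reference RNA in Cy3 and no dye swap. The authors deposited, per array, the output of Agilent Feature Extraction (12.0.3.1 per the file headers, 12.0 per the labels), which holds the intensity of both channels and the log10 ratio after background subtraction and a linear and LOWESS dye normalization. The deposited series table holds the same log10 ratio to within 0.005. The deposited log10 ratio was turned to log2 with no second normalization, spots marked as outliers were dropped, and replicate spots were averaged per probe. Probes were named through their accession and RefSeq (28026 of 55681 to 1 symbol), and a gene is given by the probe with the highest mean Cy5 signal. A probe entered a test if its Cy5 signal exceeded background on 3 or more arrays of that comparison. The tests used limma 3.58.1 (R 4.3.3), fitted per comparison to its own arrays, with the cut-off named in the study's methods.

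A fold against a group with no array above background is a lower bound on the difference in mean Cy5 signal of these arrays. It carries no sampling error and does not bound the difference between groups of mice. The mean of the bright group includes its arrays that were not above background. It was taken from the Cy5 channel after the arrays were brought to a common distribution of mean intensity (Aquantile), with the dim group set to the weakest signal that counted as above background, and it is open to dye bias. Normexp used median signals, in place of the mean signals planned, with an offset of 50. Besides the deposited ratio, 12 planned settings were run, and every array was left out in turn. The pathway lists were the ligands, receptors, Smads, inhibitors, latent complex and targets, and the marker lists osteoblast and osteocyte, chondrocyte, osteoclast, muscle, erythroid, megakaryocyte, macrophage, neutrophil, endothelial and adipocyte genes. Over the 15 arrays the mean marker ratios ran from -0.53 to 3.22 for osteoclasts, -1.10 to 1.37 for megakaryocytes, -0.46 to 0.99 for macrophages and 1.54 to 3.99 for endothelium. For macrophages they were 0.65 to 0.99 in G-Surgery and at most 0.70 in the other groups. Members of pathway lists past the cut-off are named. The genes and lists were chosen with earlier results of these data known. The fit was tested on simulated data. The number of arrays limits the precision.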

Additional observations from a re-analysis of the deposited data

Results flagged for a closer look

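Bmp2 in FLT-Sham replicate 8 had a log2 ratio of -0.18, not above background, while the other arrays of the group lay between 3.04 and 3.35. The gap was 0.914 of the range of the group, above Dixon's critical value at the 95% level. Of the 30 groups of 4 arrays that were checked this was 1, where chance marks about 1 in 20.

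Limma's interaction term of spaceflight and surgery passed the cut-off used for Bmp2 (-4.17), Tgfb2 (-3.32) and Tgfbr1 (-3.86), as did 5.33% of all probes tested. None of these genes had an adjusted p of at most 0.05, and none passed with normexp. Each was above background on 3 FLT-Sham and 0 FLT-Surgery arrays, so that the size of the term is uncertain.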

How the results depend on the processing

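Of the differences of single members, 309 of 351 under another setting and 273 of 308 with an array left out kept their direction and their side of the cut-off. Of the counts of members past the cut-off, 41 of 58 and 31 of 45 stayed within 1.5 times.

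In the Sham comparison the count was 0 with further loess, normexp, Cy5 alone against its 75th percentile, and probes above background on every array in Cy5 or in both channels. In these settings 0.167% (normexp) to 2.23% (Cy5 alone) of all probes passed. Normexp turned Bmp7 (-0.047) and Tgfbr2 (-0.17). Between FLT-Surgery and G-Surgery the count was 2 when dim probes were kept and 1 with slide as a block, beside 1.28% and 7.80% of all probes. Tgfb1 turned to 0.50 (further loess) and Tgfbr2 to 0.29 (normexp). Between G-Surgery and G-Sham, Tgfb1 turned to -0.21 with further loess and -0.093 with slide as a block, Tgfb2 to -0.29 (further loess), -0.15 (normexp) and -0.085 (Cy5 alone), and normexp gave -0.10 for Tgfb3 and -0.0085 for Tgfbr2.

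Between FLT-Surgery and FLT-Sham the count was 2 with further loess, 3 when all 15 arrays were fitted together, and 0 with normexp, slide as a block and either filter on every array. The share of all probes past the cut-off was then 6.23% (further loess), 13.55% (all 15 arrays), 1.55% (normexp), 2.875% (slide as a block) and 6.17% and 6.36% (filters), beside 6.65% in the main fit. Bmp7 turned to 0.16 (further loess) and 0.12 (normexp), and Tgfbr2 to 0.45 (normexp). Tgfb1 turned to 0.98 (further loess), 0.20 (normexp), 0.0053 (median centring), 0.40 (Cy5 alone) and 0.040 (slide as a block). In the interaction the count was 0 with normexp and either filter on every array and 1 with Cy5 alone. The share of all probes was then 1.48% (normexp), 6.80% and 7.07% (filters) and 5.025% (Cy5 alone). Further loess turned Bmp7 (1.31), Tgfb1 (1.19) and Bmpr1a (0.29), Cy5 alone turned Bmp7 (0.077) and Tgfb1 (0.34), and normexp turned Bmp7 (0.22), Tgfb1 (0.19), Tgfb2 (0.051), Tgfbr2 (0.46) and Bmpr1a (0.056). Filters on every array leave too few member probes, since most were dim on some array. The cause of the other changes was not tested.

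Leaving out one array at a time, the counts ran from 0 to 4 (Sham), 0 to 1 (Surgery), 0 to 1 (G-Surgery against G-Sham), 0 to 5 (FLT-Surgery against FLT-Sham) and 2 to 4 (interaction). In the same order, the share of all probes past the cut-off ran from 0.533% to 10.65%, 1.57% to 12.75%, 1.45% to 4.26%, 1.87% to 26.2% and 2.52% to 17.45%. Tgfb1 ran from -0.34 to 0.067 in Sham, -0.020 to 0.38 in G-Surgery against G-Sham, -0.28 to 0.21 in FLT-Surgery against FLT-Sham and -0.41 to 0.081 in the interaction, where Bmp7 ran from -0.88 to 0.17. In G-Surgery against G-Sham, Tgfb2 ran from -0.43 to 0.23 and Tgfb3 from -0.27 to 0.60.

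Replicate numbers shared by groups did not pair the mice. The deviations of arrays with the same number correlated at -0.35, -0.18 and 0.21 between the Surgery groups and at -0.16 to 0.35 between the ground groups. With the replicate number as a block 0 members passed in either comparison, as without it, and the probes past the cut-off numbered 203 in place of 261 and 389 in place of 458. The first of these pairs uses the shared numbers alone, which was chosen after seeing the data.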
